A study of Homo sapiens with 18 samples.

Results

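The comparison set disulfiram (DSF) directly against 5-fluorouracil (5-FU) in Huh1, a human hepatocellular carcinoma (HCC) line. It used 6 of the 18 one-color arrays of the series, 3 from Huh1 cells kept for 48 hours with DSF at 0.1 µM and 3 from Huh1 cells kept for 48 hours with 5-FU at 1 µM. The 3 Huh1 control arrays, which the labels call control without saying what the cells received, served to show which drug had moved a gene, and the 9 Huh7 arrays, from a second HCC line in the same 3 conditions, entered the estimate of spread, the choice of tested probes and a check of the line. All RNA came from cells sorted for the surface protein EpCAM (EpCAM+). The labels name the treatment first and the sort second, and the methods do not state the order. The doses of the drugs differ, and a difference between the groups is a difference between 0.1 µM of the one and 1 µM of the other. The methods list copper chloride with DSF, so a response to copper and a response to DSF cannot be told apart. Huh1 is 1 line, and the labels do not say whether the 3 replicates came from separate cultures, although the methods speak of independent experiments. The p-values measure the spread between these samples.

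Disulfiram is a drug against alcohol dependence that blocks aldehyde dehydrogenases, and its breakdown product diethyldithiocarbamate binds copper and other metals. Cells answer excess zinc, copper or cadmium mainly through the transcription factor MTF1, which binds metal response elements and switches on metallothioneins, small cysteine-rich proteins that bind metal ions. 5-FU is a pyrimidine analog. It blocks thymidylate synthase and is built into RNA and DNA, and cells exposed to it commonly stall in S phase and switch on p53 target genes.

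Levels are given as normalized log2 signal, the log2 of the background-corrected spot signal minus the 75th percentile of the same array, so that 0 is that percentile. Differences between groups are log2 differences of these levels, and a call is a Benjamini-Hochberg adjusted p under 0.05 from a limma fit over all 18 arrays. Of the 42405 probes 42327 had an unflagged spot on every array. Between 59.9% and 66.5% of these lay well above background in each of the 9 Huh1 arrays. Of 29894 tested probes, 14701 (49.2%) were called, 8547 higher with DSF and 6154 lower, and 3220 (10.8% of those tested) were called and at least 2-fold apart. To be tested, a probe had to lie well above background throughout 1 or more of the 6 groups, Huh7 included. With a gene represented by its brightest probe, 15852 genes were tested, 658 of them not well above background on any Huh1 array, and 55.7% were called, with DSF and 5-FU arrays that did not overlap in 69.9%. Of these 15852 genes 1093 (6.9%) were called and at least 2-fold higher with DSF and 705 (4.45%) were called and at least 2-fold lower. Over all tested genes 30.4% were called higher with DSF and 25.3% lower. Counts for gene lists are to be read beside these shares. The median difference over all tested genes was 0.046. On the 7 spike-in probes, RNA added in a fixed amount at labeling, every difference is 0.69 lower, and the split then becomes 1375 probes higher and 18758 lower. The signal of the 75th percentile minus that of the spike-ins was -2.45 to -2.41 on the log2 scale with 5-FU, and -3.23 to -2.94 with DSF. Differences are therefore read against the median of all genes. Against the Huh1 control the spike-ins raise every value by 0.13 with DSF and by 0.83 with 5-FU, so that each fall with 5-FU of a smaller size given here is above 0 on the spike-ins. The difference between the drugs itself differed between Huh1 and Huh7 for 39.7% of the probes.

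Replicates of a group were not equally close. Over 23906 probes well above background on all 9 Huh1 arrays, 5-FU replicates 2 and 3 differed by a median of 0.0468 on the log2 scale, whereas replicate 1 differed from them by 0.178 and 0.171. The pairs of DSF arrays differed by 0.0621 to 0.083, and control replicate 1 stood 0.144 and 0.132 from the other two, which were 0.0741 apart. Liver genes such as APOA1 were higher in 5-FU replicate 1 than in the other two 5-FU arrays, and the values without it are given where they change a count. When the closest pair of each Huh1 group was averaged and counted as 1 array, 11487 probes were called. DSF replicate 3 was hybridized on another slide than the other 8 Huh1 arrays, and 12939 probes were called without it.

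The metallothionein genes set the groups farthest apart. Of 12 metallothionein genes, 11 were measured, and 10 of these were higher with DSF than with 5-FU (30.4% of all tested genes were called higher), from 4.87 for MT1A to 12.75 for MT1G on the log2 scale with a median of 8.35, which was 7.66 on the spike-ins. MT1E differed by 9.36 and MT1L by 8.61. The exceptions were MT3, the brain-type member, with a difference of -0.12 (adjusted p = 0.67), and MT4, which was not well above background in any Huh1 array. The probes of the MT1 genes are near-identical in target, so that signal of one member may come in part from another and the members cannot be counted as separate responses.

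MT2A, the main metallothionein of most tissues, read 8.01, 7.85 and 8.32 in the 3 DSF arrays, 0.01, 0.00 and 0.08 in the 5-FU arrays, and 1.52, 1.19 and 1.09 in the controls. MT1X read 7.32, 7.38 and 7.47 with DSF, -1.05, -0.88 and -0.96 with 5-FU, and -0.18, -0.16 and -0.18 in the controls. MT1G read 6.63, 6.69 and 6.80 with DSF and -6.85, -5.53 and -5.74 with 5-FU, where 1 array was not well above background. Every DSF array stood above every control array and, on this scale, every control array above every 5-FU array for each of these genes. The difference between the drugs was 8.03 ± 0.18 (SE, adjusted p = 5.96e-13) for MT2A, 8.35 ± 0.08 (adjusted p = 2.93e-17) for MT1X and 12.75 ± 0.33 (adjusted p = 2.88e-12) for MT1G.

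Against the control, which both comparisons share, the 10 genes rose with DSF with a list median of 7.74, and on the scale of the 75th percentile all 10 were called lower with 5-FU with a list median of -0.78. The call of MT1F was lost without 5-FU replicate 1 or control replicate 1 or 2. On the spike-ins the list median is 7.87 with DSF and 0.045 with 5-FU, where limma called 0 of the 11 tested genes lower and 1, MT3, higher, so that the direction with 5-FU rests on the scaling. MT1M had the widest fall with 5-FU among the MT1 genes well above background on all 9 Huh1 arrays, -1.35 (adjusted p = 0.0016), beside a rise of 9.19 with DSF (adjusted p = 2.4e-11). MT1F was not well above background in any 5-FU or control array, and it was at least 3232-fold brighter with DSF than with 5-FU and at least 2005-fold brighter than in the control. Such bounds set the mean of the bright group against the dimmest signal that the scanner software still called well above background. Where the dim group's own signal was higher, that signal was used instead, array by array. The bounds hold for this background correction and this scaling. On the spike-ins each bound of DSF over 5-FU is lower by 0.69 on the log2 scale.

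The metal response element is the sequence these promoters are known for, and the stretches upstream of 4 of the genes are shown for that reason. Each is the 250 bases before the gene's start on the plus strand of GRCh38.p14, from RefSeq, with the core TGCACNC or TGCGCNC in capitals, read on either strand, so that GNGTGCA and GNGCGCA mark the other strand. They lie at chr16:56608334-56608583 (MT2A), chr16:56682220-56682469 (MT1X), chr16:56669564-56669813 (MT1H) and chr16:56651636-56651885 (MT1B).

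MT2A: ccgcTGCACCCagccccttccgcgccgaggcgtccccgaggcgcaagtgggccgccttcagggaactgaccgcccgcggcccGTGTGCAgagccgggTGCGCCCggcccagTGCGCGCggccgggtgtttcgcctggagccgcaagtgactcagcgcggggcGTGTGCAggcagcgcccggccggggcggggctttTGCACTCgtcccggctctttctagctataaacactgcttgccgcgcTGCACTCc
MT1X: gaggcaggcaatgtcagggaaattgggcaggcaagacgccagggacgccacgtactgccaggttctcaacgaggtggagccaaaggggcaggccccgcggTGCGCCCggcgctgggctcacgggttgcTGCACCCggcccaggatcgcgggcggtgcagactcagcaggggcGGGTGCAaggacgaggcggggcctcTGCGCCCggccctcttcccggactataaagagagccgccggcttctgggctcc
MT1H: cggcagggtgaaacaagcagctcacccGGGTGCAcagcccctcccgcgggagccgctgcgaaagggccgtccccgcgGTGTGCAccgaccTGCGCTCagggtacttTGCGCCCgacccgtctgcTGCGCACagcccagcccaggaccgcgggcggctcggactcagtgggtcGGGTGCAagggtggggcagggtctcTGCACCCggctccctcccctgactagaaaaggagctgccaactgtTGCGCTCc
MT1B: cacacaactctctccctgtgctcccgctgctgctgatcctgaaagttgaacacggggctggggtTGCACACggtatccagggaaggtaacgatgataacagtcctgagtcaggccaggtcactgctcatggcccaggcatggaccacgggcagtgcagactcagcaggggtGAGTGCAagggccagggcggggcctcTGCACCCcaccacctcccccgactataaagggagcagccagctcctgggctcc

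The core occurs 7 times before MT2A, 8 times before MT1H, 4 times before MT1X and 3 times before MT1B. Of 35116 promoters in the table, 24.8% hold at least 1 copy in the same length, 1.58% at least 3, 0.37% at least 4, 0.0313% at least 7 and 0.0171% at least 8. The table holds 5 of the 12 metallothionein genes, and all 5 have the core, MT4 with 3 copies among them. MT1H, with the most copies of those shown, differed between the drugs by 8.27 ± 0.10 and MT1B, with the fewest, by 8.25 ± 0.07, and the other probe of MT1H differed by 13.10.

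Other genes of copper and zinc handling showed no common direction, with shares called close to those of all genes. Of 27 tested, 9 were higher with DSF and 11 lower (25.3% of all tested genes were called lower), with a median of -0.023 that is -0.72 on the spike-ins and 0.13 after normexp background correction. The zinc exporter gene SLC30A1 (ZnT1), itself a target of MTF1, read 3.95, 3.90 and 3.86 with DSF, 2.83, 2.74 and 2.78 with 5-FU, and 1.25, 1.28 and 1.28 in the controls. It therefore rose with both drugs, by 2.64 with DSF and 1.52 with 5-FU, and the groups did not overlap. The difference between the drugs was 1.12 ± 0.11 (adjusted p = 2.61e-06). COMMD1, a copper export factor, was 0.95 higher with DSF (adjusted p = 6.79e-06), and SLC30A2 (ZnT2) was 1.20 higher (adjusted p = 0.00011) at a level near background in the 5-FU arrays. SLC30A10, a manganese exporter, differed by -1.70 (adjusted p = 4.21e-08), with levels of -1.87, -1.76 and -1.75 with DSF against 0.08, -0.17 and -0.19 with 5-FU. The calls of SLC30A1, SLC30A2 and COMMD1 were lost on the spike-ins.

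Most heat shock chaperone genes were higher with DSF on the scale of the 75th percentile. HSPA6, an HSP70 gene that is silent in unstressed cells, read 3.53, 3.51 and 3.59 with DSF, -3.40, -3.24 and -3.26 with 5-FU, and -3.68, -3.52 and -3.44 in the controls. Against the control it rose by 7.09 with DSF, while the 5-FU value of 0.25 did not pass the test (adjusted p = 0.16). The difference between the drugs was 6.85 ± 0.14 (adjusted p = 1.51e-13), a 115-fold difference. The other probe of HSPA6 differed by 5.85. HSPA1A and HSPA1B, the near-identical inducible HSP70 genes whose probes may share signal, were 1.98 and 1.88 higher with DSF (adjusted p = 7.8e-08 and 1.84e-09). Against the control these 2 genes rose with DSF, by 1.63 and 1.00, and fell with 5-FU, by 0.35 and 0.88. The small heat shock protein gene HSPB1 went the other way, with 5.75, 5.81 and 5.83 with DSF against 6.72, 6.42 and 6.42 with 5-FU, a difference of -0.72 (adjusted p = 0.000125), as did the cochaperone gene DNAJB4 with -0.51 (adjusted p = 0.000814). Of 26 chaperone genes 17 were higher and 2 lower, with a median of 0.39 that is -0.30 on the spike-ins. After quantile normalization 13 were higher and 4 lower, with a median of 0.16. Against the control their medians were 0.12 with DSF, where 12 rose and 6 fell, and -0.11 with 5-FU, where 7 rose and 12 fell.

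The sequence before HSPA6 is shown because heat shock factors bind repeats of GAA and its complement there. The capitals mark GAANNTTC or TTCNNGAA, each of which reads the same on both strands, in the 250 bases before HSPA6 at chr1:161524290-161524539 and before HSPA1A at chr6:31815293-31815542 (GRCh38.p14, plus strand, RefSeq).

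HSPA6: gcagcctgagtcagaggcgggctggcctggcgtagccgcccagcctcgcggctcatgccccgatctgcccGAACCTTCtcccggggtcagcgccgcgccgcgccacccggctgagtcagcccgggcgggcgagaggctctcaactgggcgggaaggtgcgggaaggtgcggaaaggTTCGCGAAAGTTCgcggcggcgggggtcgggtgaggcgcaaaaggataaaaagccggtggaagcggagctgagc
HSPA1A: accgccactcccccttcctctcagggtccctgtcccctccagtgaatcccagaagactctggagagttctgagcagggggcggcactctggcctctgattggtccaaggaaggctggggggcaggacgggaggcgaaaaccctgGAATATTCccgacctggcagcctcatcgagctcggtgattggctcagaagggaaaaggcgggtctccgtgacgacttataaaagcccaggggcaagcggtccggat

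HSPA6 holds the pattern 3 times, with neighboring copies that share bases, and HSPA1A holds it 1 time. Of all 35116 promoters 11.6% hold it at least 1 time and 0.145% at least 3 times. Of 26 heat shock chaperone genes 23 are in the table and 10 of those hold it.

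Genes of the integrated stress response and of the endoplasmic reticulum (ER) were higher with DSF as well. Of 27 targets of ATF4, the transcription factor that answers amino acid shortage and other stress, 18 were higher and 3 lower, with a median of 0.46 that is -0.23 on the spike-ins. Among these 27, the liver hormone gene FGF21 was 3.28 higher with DSF (adjusted p = 3.91e-07), and DDIT4, an inhibitor of mTORC1, was 1.49 higher (adjusted p = 2.64e-09). CTH, which makes cysteine from cystathionine, was not among the 27 and was counted with the genes of amino acid breakdown. It read 4.09, 4.08 and 4.15 with DSF and 1.31, 1.59 and 1.55 with 5-FU, a difference of 2.62 ± 0.14 (adjusted p = 4.31e-09). CTH and DDIT4 rose with DSF by 2.17 and 1.08 and fell with 5-FU by 0.45, a call of CTH lost without 5-FU replicate 1 or control replicate 2 or 3, and by 0.40, whereas PCK2, the mitochondrial PEP carboxykinase, differed by 1.47 (adjusted p = 2.01e-05) with a fall of -1.57 with 5-FU and a value of -0.10 with DSF that did not pass the test (adjusted p = 0.71).

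Of 21 ER chaperone and unfolded protein response genes 17 were higher with DSF and 0 were lower, with a median of 0.63 that is -0.064 on the spike-ins. The medians against the control were 0.15 with DSF, which is -0.020 under median scaling, and -0.51 with 5-FU, which is 0.32 on the spike-ins. HERPUD1, a component of ER-associated degradation, read 5.58 in each DSF array and 3.71, 4.07 and 4.08 with 5-FU. It rose by 1.55 with DSF, and its value of -0.08 with 5-FU did not pass the test (adjusted p = 0.6). The ER cochaperone gene DNAJC3 and the sensor gene ATF6 were each 1.21 higher with DSF (adjusted p = 5.51e-08 and 9.28e-08).

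Redox genes differed less. Of 25 targets of NRF2, the regulator of the antioxidant response, 12 were higher with DSF and 6 lower, with a median of 0.26 that is -0.069 after quantile normalization and -0.44 on the spike-ins. Against the control their medians were -0.31 with DSF and -0.47 with 5-FU, and 15 and 16 of them fell, which became 7 and 1 on the spike-ins, where 13 rose with 5-FU and the median was 0.36. The cystine transporter gene SLC7A11 was 0.85 higher with DSF (adjusted p = 0.000547), with a fall of -1.03 with 5-FU. ABCC2, an export pump for conjugates, and OSGIN1 were lower with DSF, with differences of -0.68 and -0.67 (adjusted p = 3.58e-07 and 0.000202).

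Of 24 enzymes that remove reactive oxygen species (ROS) 12 were higher and 2 lower, with a median of 0.32 that is -0.37 on the spike-ins and 7 calls higher under median scaling. Their medians against the control were -0.29 with DSF, where 13 fell and 4 rose, and -0.47 with 5-FU, where 18 fell and 4 rose. The median with 5-FU is above 0 on the spike-ins. GPX1, a glutathione peroxidase, read 6.83 or more with DSF and 6.14 or less with 5-FU, a difference of 0.83 (adjusted p = 4.46e-06). Glutathione synthesis split between its genes. GSS was 0.47 higher with DSF (adjusted p = 3.28e-05), a value that is -0.23 on the spike-ins, and GCLM differed by -0.31 (adjusted p = 0.0333), a call lost when the closest arrays were averaged (adjusted p = 0.125) and without DSF replicate 1 or 3 or 5-FU replicate 2 or 3.

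Apart from metallothioneins, the gene with the largest difference among those measured in all 6 arrays was CDKN1C, which encodes the cell cycle inhibitor p57KIP2 and lies in an imprinted cluster. It read 4.83, 4.70 and 4.67 with DSF, -5.10, -4.89 and -4.52 with 5-FU, and -5.70, -5.86 and -5.94 in the controls, none of which was well above background. The drugs differed by 9.57 ± 0.16 (adjusted p = 2.09e-14), a 760-fold difference, and both groups of treated arrays stood above the controls, with bounds of at least 1518-fold for DSF and at least 2.00-fold for 5-FU. Of the other 7 CDK inhibitor genes, CDKN2D was 1.17 higher with DSF (adjusted p = 3.19e-07), CDKN1A (p21) differed by -0.52 (adjusted p = 0.00109) and CDKN3 by -0.40 (adjusted p = 0.00273). CDKN1B, CDKN2A, CDKN2B and CDKN2C did not pass the test, with differences between -0.34 and 0.38, although without 5-FU replicate 1 CDKN2C was called at 0.63 (adjusted p = 0.0124) and CDKN2B at -0.60 (adjusted p = 0.0115), and CDKN3 read -0.26.

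RRAD, a small Ras-related GTPase, read 1.75, 1.67 and 1.64 with DSF and -5.39, -5.23 and -5.11 with 5-FU, a difference of 6.93 ± 0.19 (adjusted p = 3.66e-12). NRARP, a feedback inhibitor of Notch signaling, read 1.99, 1.90 and 1.87 with DSF and -3.65, -4.86 and -4.81 with 5-FU, and differed by 6.36 ± 0.27 (adjusted p = 4.29e-10). DHRS2, a mitochondrial reductase gene, read 2.05, 2.05 and 2.13 against -3.48, -3.72 and -3.97, and differed by 5.80 ± 0.21 (adjusted p = 8.04e-11). The DSF and 5-FU arrays of the 3 genes did not overlap, which the rule that picked them required. NRARP did not pass the test against the control with 5-FU (-0.54, adjusted p = 0.11) but did without 5-FU replicate 1 (-0.93, adjusted p = 0.00116), while DHRS2 fell by 0.76, and RRAD, not well above background in any control array, was at least 2.42-fold brighter with 5-FU than there. The other probe of NRARP differed by 3.02.

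Genes that were well above background only with DSF among the Huh1 groups were ranked by their bound against 5-FU, and after MT1F the following 5 came first. NPTX2, a synaptic pentraxin, read 1.21, 1.07 and 1.06 with DSF and was at least 316-fold brighter than with 5-FU. MIR7-3HG, a noncoding host transcript, was at least 312-fold brighter, ARC, an immediate early gene of neurons, at least 286-fold, the elongin paralog ELOA2 at least 212-fold and the cytokine gene IL11 at least 136-fold. None of the 5 was well above background in any 5-FU or control array of Huh1. The other probe of MIR7-3HG differed by 7.72 on the log2 scale, beside 8.78 for the one used.

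At the imprinted IGF2 and H19 pair, both genes read higher with DSF. IGF2 was well above background in all DSF arrays at -2.94, -2.97 and -3.19 and in none of the 5-FU and control arrays, with at least 13.5-fold more signal than with 5-FU, although its other probe differed by 0.13. H19 read -1.19, -1.31 and -1.13 with DSF, -6.10, -4.93 and -4.91 with 5-FU, and -2.10, -3.32 and -3.27 in the controls. It was well above background in 2 of the 3 5-FU arrays, differed by 4.10 ± 0.70 (adjusted p = 0.000233) and fell by 2.42 with 5-FU (adjusted p = 0.011), while its value of 1.69 with DSF missed the threshold (adjusted p = 0.064) and passed it without control replicate 1 at 2.09 (adjusted p = 0.0433).

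Several of the genes lowest with DSF are genes of hepatocytes. Among the 12 lowest of those measured in all 6 arrays were G6PC1, the glucose-6-phosphatase of glucose release, KNG1 (kininogen), APOA1, the main HDL apolipoprotein, SULT2A1, a bile acid and steroid sulfotransferase, and the transporter genes SLC22A10 and SLC17A4. G6PC1 read -3.28, -3.46 and -3.43 with DSF, 0.90, -0.35 and -0.38 with 5-FU, and -0.59, -1.06 and -1.17 in the controls. APOA1 read 2.78, 2.73 and 2.84 with DSF, 6.17, 5.06 and 5.07 with 5-FU, and 4.78, 4.87 and 4.80 in the controls. The groups did not overlap for either gene, which the rule that picked them required of the DSF and 5-FU arrays. The difference was -3.45 ± 0.34 (adjusted p = 2.17e-06) for G6PC1 and -2.65 ± 0.21 (adjusted p = 2.82e-07) for APOA1, and both genes fell with DSF, by 2.45 and by 2.03. The rises with 5-FU, 1.00 and 0.62, rested in large part on 5-FU replicate 1. Without it they were 0.57 (adjusted p = 0.135), a call lost, for G6PC1 and 0.25 (adjusted p = 0.031), a call kept, for APOA1. Both calls were lost without control replicate 3, that of G6PC1 without control replicate 2 and that of APOA1 without control replicate 1.

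SKAP1, an adaptor of T cell signaling, read -5.21, -5.01 and -5.29 with DSF and -0.84, -1.82 and -1.83 with 5-FU. It had the largest difference in this direction, -3.67 ± 0.22 (adjusted p = 1.58e-08), and rose by 3.68 with 5-FU with a value of 0.01 for DSF (adjusted p = 0.98). ISM1 differed by -3.03, the phospholipase gene PLA2G10 by -2.97, FAM20A by -2.85, SLC17A4 by -2.84, KNG1 by -2.79, the metalloprotease gene MEP1A by -2.75, the Wnt inhibitor gene WIF1 by -2.63, SULT2A1 by -2.60 and SLC22A10 by -3.01. Of these 9 genes, KNG1 and SULT2A1 did not pass the test against the control with 5-FU and the remaining 7 rose, while SLC22A10 and PLA2G10 did not pass it with DSF and the remaining 7 fell. Without 5-FU replicate 1 the rise of FAM20A was 0.77 beside 1.19 with it, SULT2A1 was called lower with 5-FU at -0.24 (adjusted p = 0.0262) and the rise of MEP1A, 0.58, was no longer called, and it was 0.46 without control replicate 1 (adjusted p = 0.0524).

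Genes well above background in the 5-FU arrays but in no DSF array were ranked by their bound, and the first 6 were SERPINA11, a liver serpin gene, at least 10.8-fold brighter with 5-FU, CYP2C8, a drug-metabolizing P450, at least 7.96-fold, TMEM270 at least 6.15-fold, LRRC31 at least 5.87-fold, ANGPTL2, an angiopoietin-like secreted factor, at least 5.54-fold, and OLFML2A at least 4.98-fold. These are low levels, such as -1.71, -3.02 and -3.00 for SERPINA11 with 5-FU. On the log2 scale the other probe of LRRC31 differed by -1.65 and that of OLFML2A by 0.20. OLFML2A did not pass the test with 5-FU against the control (0.03, adjusted p = 0.95) and was at least 4.89-fold brighter in the control than with DSF.

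Of 53 measured genes of plasma proteins made by the liver 37 were lower and 3 higher, 22 of them at least 2-fold lower, with a median of -0.84 that is -1.53 on the spike-ins. Without 5-FU replicate 1 the count was 33 lower and 4 higher, and 1 was higher without DSF replicate 2 or 3 or without 5-FU replicate 2 or 3. Against the control, the list's median was -0.70 with DSF and 0.18 with 5-FU, with 36 of the genes fallen with DSF and 9 with 5-FU, the 9 becoming 3 without 5-FU replicate 2 or 3, 5 without control replicate 2 or 3, and 1 on the spike-ins. TTR (transthyretin) read 2.50, 2.45 and 2.43 with DSF and 5.22, 4.36 and 4.38 with 5-FU, a difference of -2.19 ± 0.20 (adjusted p = 1.06e-06). The iron hormone gene HAMP fell by 1.83 with DSF and differed between the drugs by -1.36 (adjusted p = 7.23e-05). The acute phase gene SAA1 went against the list, 1.30 higher with DSF (adjusted p = 0.00371).

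Of 13 gluconeogenesis genes 7 were lower with DSF and 3 higher, with a median of -0.38. PCK1, the cytosolic PEP carboxykinase, read -5.36, -4.80 and -4.90 with DSF and -2.06, -3.29 and -3.32 with 5-FU. It fell by 2.14 with DSF and its value with 5-FU was -0.01 (adjusted p = 0.98) and -0.43 without 5-FU replicate 1 (adjusted p = 0.0405), and the drugs differed by -2.13 ± 0.26 (adjusted p = 1.47e-05), in the direction opposite to its mitochondrial counterpart PCK2.

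Of 26 genes of fatty acid oxidation and ketogenesis 16 were lower and 3 higher, with a median of -0.41. Genes of the urea cycle and amino acid breakdown were divided, with 12 of 37 lower and 9 higher, beside 25.3% and 30.4% of all tested genes. Under median scaling 4 were higher. The highest of this list was CTH, with a difference of 2.62. Among the urea cycle enzymes, OTC differed by -2.23 ± 0.26 (adjusted p = 7.86e-06) and ARG1 by -1.82 ± 0.35 (adjusted p = 0.000703), and both fell against the control with DSF, by 2.00 and by 1.99, while 0.23 and -0.17 with 5-FU did not pass the test.

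Bile acid genes and liver transcription factors were lower with DSF too. Of 16 tested genes of bile acid handling and the nuclear receptor FXR 11 were lower, with a median of -0.61, and the 1 called higher, SLC51A, was not well above background on any Huh1 array. Of the 13 well above background on all 6 arrays 9 were lower and 0 higher. NR0B2 (SHP), the repressor that FXR induces, read 0.04, 0.08 and 0.19 with DSF, 2.12, 2.80 and 2.84 with 5-FU, and -2.15, -0.66 and -0.70 in the controls. It rose with both drugs, by 1.27 with DSF (0.78 without control replicate 1) and by 3.76 with 5-FU, and differed by -2.48 ± 0.37 (adjusted p = 6.81e-05). Of 23 liver transcription factor genes 15 were lower and 3 higher, with a median of -0.55. The xenobiotic receptor gene NR1I3 (CAR) differed by -2.18 ± 0.30 (adjusted p = 3.64e-05), and ONECUT1 (HNF6) by -1.18 ± 0.08 (adjusted p = 7.12e-08). Of 29 cytochrome P450 genes 13 were lower and 4 higher, with a median of -0.32, the 4 becoming 0 under median scaling and on the spike-ins, 7 after normexp and 2 without DSF replicate 1 or 3, and CYP2B6, a CAR target, differed by -1.68 ± 0.19 (adjusted p = 8.24e-06).

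The medians of cholesterol synthesis lay on opposite sides of the control. Of 26 genes 21 were lower with DSF than with 5-FU and 1 was higher, with a median of -0.65. The median against the control was -0.30 with DSF, where 16 genes fell, and 0.43 with 5-FU, where 16 rose. DHCR7, the last enzyme of the pathway, read 3.96, 3.96 and 4.02 with DSF, 5.41, 5.32 and 5.30 with 5-FU, and 4.25, 4.59 and 4.51 in the controls, and differed by -1.36 ± 0.08 (adjusted p = 7.18e-09). The sterol reductase gene TM7SF2 had means of -0.18 and 0.82 (adjusted p = 3.96e-05). Of 19 fatty acid synthesis genes 10 were lower and 4 higher (2 higher without DSF replicate 3), and PNPLA3, the lipid droplet protein, differed by -1.35 ± 0.12 (adjusted p = 1.04e-06).

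**Figure D1:**
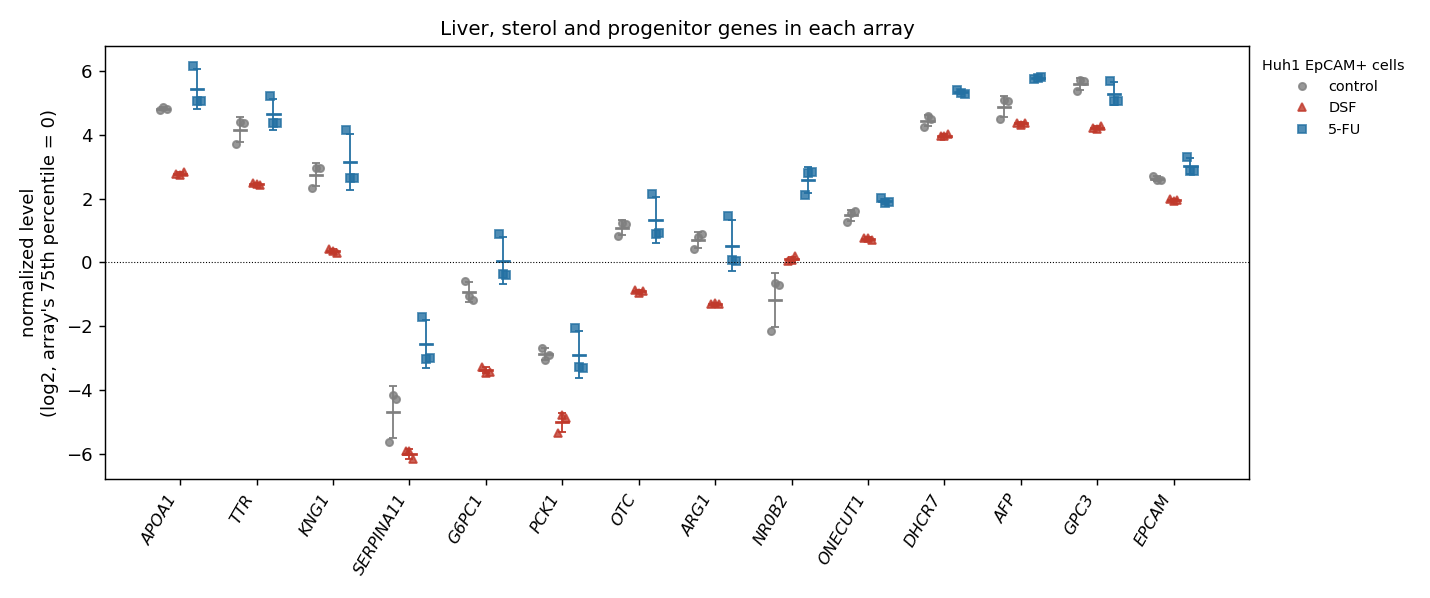
Normalized level (log2, 0 at the array's 75th percentile) of 14 liver, sterol and progenitor genes in the 3 control, 3 DSF and 3 5-FU arrays of Huh1, with the mean as a bar and the SD as an error bar. The DSF arrays sit below the 5-FU arrays for each gene and close together, while 5-FU replicate 1 stands above the other 5-FU arrays for several genes, such as APOA1 with 6.17 against 5.06 and 5.07.

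Hepatocellular marker genes were read as a check of the cells and took part in the same pattern. All 12, from ALB to KRT18, were well above background in every Huh1 array, 9 were lower with DSF and 1 higher. Of 15 markers of other cell types, COL1A2, COL3A1 and LYVE1 were not well above background in any Huh1 array, while others, LUM, PTPRC and PECAM1 among them, were in all 9. Of the 11 tested 1 was higher (3 without 5-FU replicate 1 and 5 after normexp) and 1, LUM with a difference of -0.80, lower. Some dim markers read higher with DSF. VWF had means of -4.90 with DSF, -5.98 with 5-FU and -6.07 in the controls, and DCN of -5.22, -6.15 and -6.42. Both were well above background on all 3 DSF arrays, and on 0 (VWF) and 1 (DCN) of the controls. The signal of the 15, summed in units of the array's 75th percentile, gives most weight to the bright ones. It was 3.55 to 3.65 with DSF, 4.26 to 4.38 with 5-FU and 4.43 to 4.65 in the controls. The part of other cells in the differences was not tested. In bulk RNA, fewer cells of a kind and less RNA per cell cannot be told apart.

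The sort marker itself, EPCAM, read 1.99, 1.93 and 1.97 with DSF, 3.31, 2.87 and 2.86 with 5-FU, and 2.71, 2.57 and 2.58 in the controls. It was lower with DSF by a difference of -1.05 ± 0.17 (adjusted p = 0.000176) among cells sorted for its protein. It fell by 0.66 with DSF, and its value of 0.39 with 5-FU did not pass the test (adjusted p = 0.076). AFP, the fetal liver marker, read 4.38, 4.32 and 4.38 with DSF and 5.75, 5.79 and 5.81 with 5-FU, and differed by -1.43 ± 0.15 (adjusted p = 2.87e-06), with a fall of -0.53 with DSF and a rise of 0.90 with 5-FU. GPC3 (glypican-3), a surface proteoglycan of HCC, differed by -1.06 ± 0.14 (adjusted p = 3.61e-05), with a fall of -1.37 with DSF and a value of -0.32 with 5-FU that did not pass the test (adjusted p = 0.087) but did without 5-FU replicate 1, at -0.52 (adjusted p = 0.000937), and without control replicate 1, at -0.43 (adjusted p = 0.0355).

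Of 26 progenitor and tumor-initiating cell markers 11 were lower with DSF and 7 higher, beside 25.3% and 30.4% of all tested genes. Their median was -0.22, with differences from -1.43 to 4.19, and 2 were called at least 2-fold higher and 3 at least 2-fold lower. Of the 23 well above background on all 6 arrays 11 were lower and 5 higher. ANPEP (CD13) differed by -0.86 (adjusted p = 0.0026), a value of -0.56 without 5-FU replicate 1. PROM1 (CD133) read -4.43, -4.41 and -4.07 with DSF and -4.36, -3.68 and -3.89 with 5-FU, overlapping groups with a difference of -0.33 that did not pass the test (adjusted p = 0.114) and is 0.016 after normexp. Without 5-FU replicate 1 PROM1 was called lower, at -0.52 (adjusted p = 0.0102). CDH1 (E-cadherin) differed by -0.70 (adjusted p = 0.0196), a call lost without 5-FU replicate 1 at -0.40 and without DSF replicate 3. Genes of epithelial junctions and the mesenchymal state were counted as a separate list, with shares called close to those of all genes. Of the 24 tested there, 6 were higher with DSF and 7 lower, beside 30.4% and 25.3% of all tested genes. The largest difference there was that of the tight junction gene CLDN2, at 1.99 ± 0.20 (adjusted p = 2.65e-06). SNAI1, a repressor of CDH1, was 1.69 ± 0.14 higher with DSF (adjusted p = 5.11e-07).

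Cell cycle genes divided by phase. Of 34 mitosis and spindle checkpoint genes 24 were higher with DSF and 1 lower, with a median of 0.35 that is -0.34 on the spike-ins, whereas of 39 DNA replication and G1/S genes 21 were lower and 6 higher, with a median of -0.21. Against the control, mitosis genes had medians of -0.27 with DSF and -0.63 with 5-FU, which is 0.20 on the spike-ins, and replication genes of -0.13 and 0.024, the last -0.027 without 5-FU replicate 1. The mitotic kinase gene PLK1 read -0.26, -0.27 and -0.12 with DSF, -1.56, -1.27 and -1.30 with 5-FU, and 0.40, 0.62 and 0.56 in the controls. It thus fell with both drugs, by 0.74 with DSF and by 1.90 with 5-FU, and differed by 1.16 ± 0.09 (adjusted p = 1.33e-07). CCNB2 (cyclin B2) was 1.01 higher and the checkpoint kinase gene BUB1 0.93 higher with DSF (adjusted p = 1.15e-07 and 5.22e-07).

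On the other side, PRIM1, a DNA primase subunit, read 2.28, 2.22 and 2.23 with DSF and 3.41, 3.16 and 3.18 with 5-FU, so that it was lower with DSF (SE 0.10, adjusted p = 2.79e-06). The origin factor genes MCM10 and CDC6 differed by -0.90 and -0.83 (adjusted p = 4.84e-07 and 1.17e-06), and CDC6 rose by 0.86 with 5-FU while its value with DSF was 0.02 (adjusted p = 0.84). CDK2, the kinase of S phase entry, differed by -0.55 (adjusted p = 1.78e-05). Of 31 genes of recombination repair and the Fanconi pathway 18 were lower with DSF and 7 higher, with a median of -0.30, and the 7 became 3 when the closest arrays were averaged. XRCC3, a recombination repair gene, read 2.27, 2.32 and 2.20 with DSF and 3.19, 3.13 and 3.13 with 5-FU, a difference of -0.89 ± 0.06 (adjusted p = 2.87e-08) with a rise of 0.78 with 5-FU.

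Targets of p53 were lower with DSF than with 5-FU in 12 of 26 cases and higher in 5, with a median of -0.24, and the 5 became 1 under median scaling, with 16 lower, 0 on the spike-ins, with 24 lower, 2 when the closest arrays were averaged and 3 without any 1 of the DSF arrays or without 5-FU replicate 3. The median against the control was 0.57 with 5-FU, where 16 rose, and 0.16 with DSF, where 8 rose. The antiproliferative gene BTG2 read 0.27, 0.26 and 0.29 with DSF and 2.54, 1.61 and 1.67 with 5-FU, a difference of -1.66 ± 0.18 (adjusted p = 3.86e-06). TP53INP1 rose with both drugs, by 0.67 with DSF and 1.88 with 5-FU, and differed by -1.22 ± 0.12 (adjusted p = 2.56e-06). CDKN1A likewise rose with both, by 0.50 and 1.03.

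Genes that handle 5-FU and its metabolites were lower with DSF in 15 of 32 cases and higher in 3, with a median of -0.18. DPYD, the enzyme that breaks 5-FU down, differed by -0.90 (adjusted p = 0.00696) and by -0.38 on its other probe, with -4.18, -4.16 and -4.11 with DSF and -3.31, -3.21 and -3.21 with 5-FU. Its control arrays lay at -4.94, -3.79 and -3.78, and it rose by 0.92 with 5-FU (adjusted p = 0.0062), or by 0.54 without control replicate 1. CDA (cytidine deaminase) was 1.01 higher with DSF (adjusted p = 1.01e-05), with a rise of 0.61 with DSF and a fall of -0.39 with 5-FU, a call lost without 5-FU replicate 1 or control replicate 1.

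Replication-dependent histone genes, whose short messages lack a poly(A) tail in normal S phase, were higher with DSF as a group. Of 54 measured 44 were higher with DSF, 25 of them at least 2-fold, and 1 was lower, with a median of 0.88. On the spike-ins the median was 0.19, and 25 were called higher and 13 lower. All 54 fell with 5-FU against the control, with a median of -0.74, whereas on the spike-ins 14 fell and 9 rose and the median was 0.092, while with DSF 21 rose and 24 fell around a median of -0.22. H2AC7 read 5.69, 5.61 and 5.64 with DSF, 2.99, 2.80 and 2.86 with 5-FU, and 3.39, 3.28 and 3.19 in the controls, and differed by 2.76 ± 0.07 (adjusted p = 1.86e-12). H2AC6 and H2AC8 differed by 2.48 ± 0.09 and 2.25 ± 0.07 (adjusted p = 8.04e-11 and 1.18e-11). These 3 H2A genes rose with DSF, by 2.36, 1.23 and 1.52. H1-1 was the member lower with DSF, by a difference of -0.42 (adjusted p = 0.000145). Histone genes of a class are near-identical, so the probes may share signal, and the other probe of H2AC6 differed by 1.08.

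**Figure D2:**
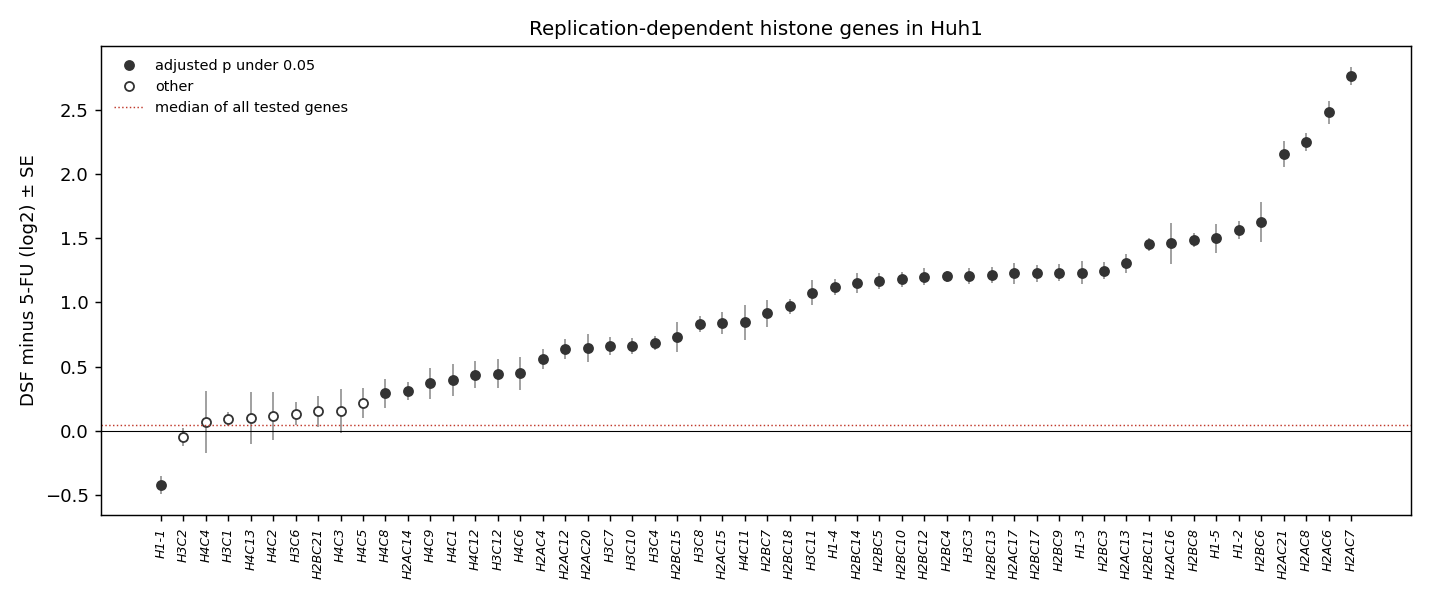
DSF minus 5-FU (log2, with SE) of 54 replication-dependent histone genes in Huh1, ordered by value, filled where the adjusted p is under 0.05. The values run from -0.42 for H1-1 to 2.76 for H2AC7 and most lie above the dotted line at the median of all tested genes, 0.046.

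Genes of the translation machinery were higher with DSF than with 5-FU on this scale. Of 79 cytosolic ribosomal protein genes 77 were higher with DSF and 0 lower, with a median of 0.45 that is 0.094 after quantile normalization, where 24 were called higher, and -0.24 on the spike-ins. Of these genes 76 fell with 5-FU, with a median of -0.49, and 3 fell and 2 rose with DSF, with a median of -0.043. On the spike-ins 53 rose and 1 fell with 5-FU, with a median of 0.34, after quantile normalization 26 fell with 5-FU, and under median scaling 48 fell with DSF. The 3 that fell with DSF became 1 without DSF replicate 2 or control replicate 2 and 6 without DSF replicate 3. RPL3 read 7.37, 7.32 and 7.51 with DSF, 6.46, 6.26 and 6.38 with 5-FU, and 7.67, 7.69 and 7.63 in the controls, and differed by 1.03 ± 0.08 (adjusted p = 1.54e-07). RPL10A was 0.80 higher (adjusted p = 1.82e-07). The 77 genes of mitochondrial ribosomal proteins had no common direction, with 18 higher (11 without DSF replicate 1), 21 lower and a median of -0.022 that is -0.72 on the spike-ins. Beside them, 30.4% of all tested genes were called higher and 25.3% lower.

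Translation initiation factors were higher with DSF in 25 of 37 cases and lower in 2 (median 0.27, -0.43 on the spike-ins), with 14 higher under median scaling, and EIF3F was 1.09 higher (adjusted p = 6.14e-09). Of 23 cytosolic aminoacyl-tRNA synthetases 13 were higher and 1 lower (median 0.33, -0.37 on the spike-ins), and CARS1, the cysteinyl-tRNA synthetase, was 1.17 higher (adjusted p = 4.94e-06) with a rise of 1.25 with DSF. Of 37 splicing proteins of the SR and hnRNP families 26 were higher and 2 lower (median 0.32, -0.37 on the spike-ins). HNRNPA1 read 6.47, 6.41 and 6.44 with DSF and 5.50, 5.60 and 5.55 with 5-FU, a difference of 0.89 (adjusted p = 4.96e-05) with a fall of -1.01 with 5-FU. The gene of the segregase VCP was 0.89 higher as well (adjusted p = 3.55e-08), and fell by 1.06 with 5-FU and by 0.17 with DSF, a fall with DSF whose call was lost without any 1 of the DSF arrays or control replicate 1 or 2.

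**Figure D3:**
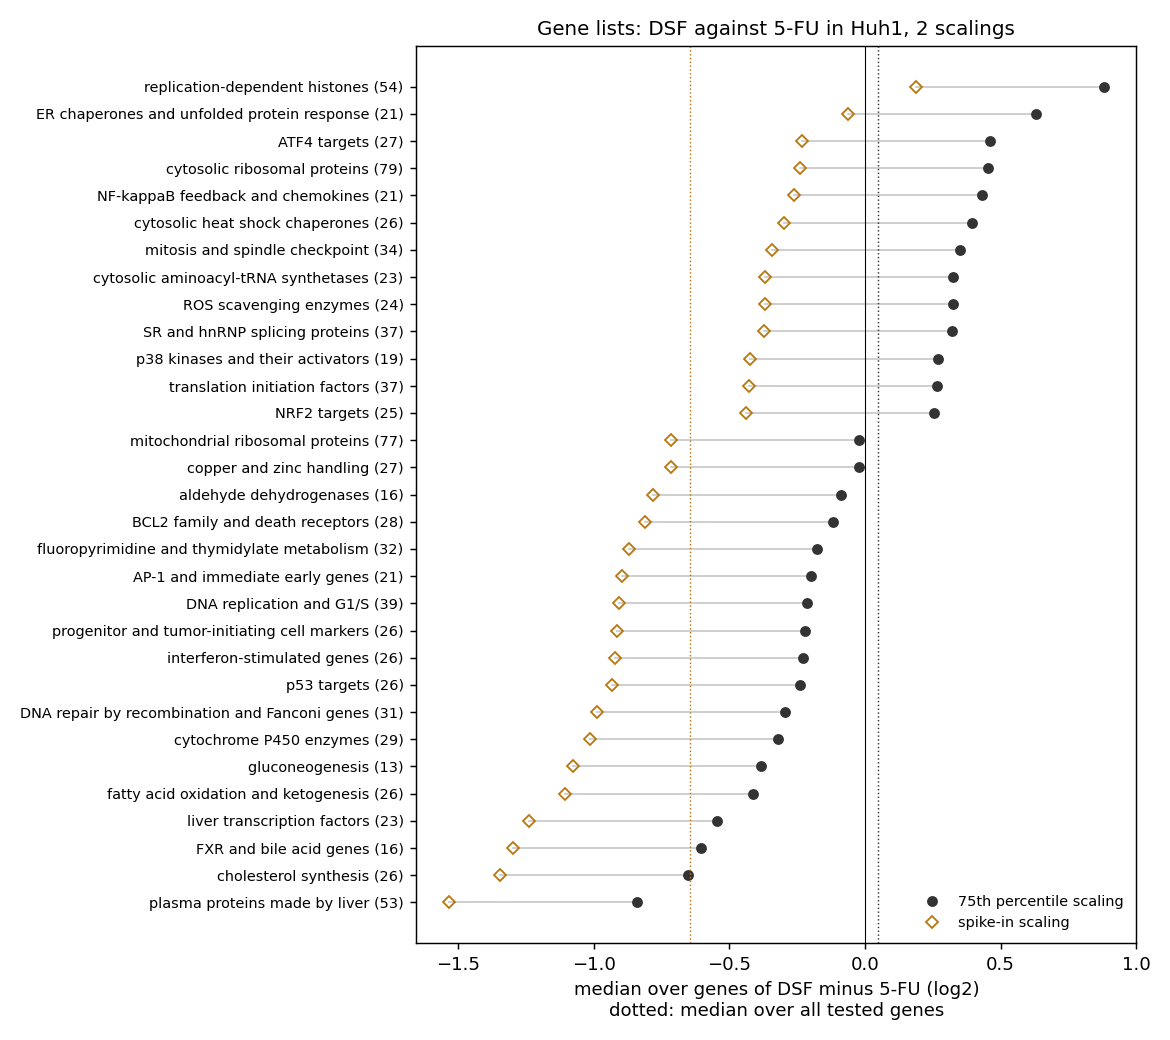
Median difference DSF minus 5-FU (log2) over the genes of 31 lists, with the number tested in brackets, under scaling to the array's 75th percentile (filled circles) and to the spike-ins (open diamonds), with dotted lines at the medians of all tested genes, 0.046 and -0.65. Histone genes stay above 0 under both, and plasma proteins and cholesterol synthesis lie lowest under both.

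Signaling genes were divided. Of 21 genes of NF-kappaB feedback and chemokines 11 were higher with DSF and 0 lower, with a median of 0.43 that is -0.26 on the spike-ins, and their medians against the control were 1.22 with DSF and 0.65 with 5-FU. TNFAIP3 (A20), a feedback inhibitor of NF-kappaB, read -0.02, 0.04 and -0.04 with DSF, -1.91, -1.99 and -1.97 with 5-FU, and -2.62, -2.39 and -2.26 in the controls, and differed by 1.95 ± 0.09 (adjusted p = 1.63e-09). The chemokine genes CXCL1 and CXCL3 were 1.23 and 1.24 higher with DSF (adjusted p = 0.000734 and 4.55e-07), after rises with both drugs.

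AP-1 and immediate early genes were lower with DSF in 8 of 21 cases and higher in 6, beside 25.3% and 30.4% of all tested genes. Without 5-FU replicate 1, 5 were lower, with a median of 0.071 beside -0.20 with it. Without DSF replicate 2 or 3, 5 were lower as well. Their medians against the control were 0.39 with DSF, where 10 rose and 4 fell, and 0.73 with 5-FU, where 13 rose and 1 fell. JUN read 1.85, 1.79 and 1.79 with DSF, 3.79, 3.30 and 3.29 with 5-FU, and 2.99, 2.10 and 2.22 in the controls. It fell with DSF, by 0.63 and without control replicate 1 by 0.35, rose with 5-FU, by 1.02, and differed by -1.65 ± 0.18 (adjusted p = 5.45e-06). ZFP36, which destabilizes cytokine messages, differed by -1.04 (adjusted p = 0.00164) and the orphan receptor gene NR4A2 by 1.49 (adjusted p = 6.89e-06). Of 10 MAPK phosphatases 5 were lower with DSF and 1 higher, with a median of -0.48. Against the control their medians were 0.50 with DSF, where 6 rose and 2 fell, and 1.03 with 5-FU, where 7 rose and 1 fell. DUSP1, which inactivates p38 and JNK, read 2.74, 2.69 and 2.74 with DSF and 4.64, 3.90 and 3.87 with 5-FU, a difference of -1.41 ± 0.29 (adjusted p = 0.00119).

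Of 19 p38 kinases and activators 9 were higher with DSF and 3 lower (1 lower without 5-FU replicate 1 or any 1 of the DSF arrays), with a median of 0.27 that is -0.42 on the spike-ins. The 3 with at least a 2-fold difference were GADD45G and GADD45B, stress proteins that activate the kinase above p38, at 1.83 ± 0.20 and 1.72 ± 0.18 (adjusted p = 4.23e-06 and 3.73e-06), and MAPK11 (p38 beta) at 1.26 ± 0.11 (adjusted p = 7.11e-07), whose other probe differed by 0.37. GADD45B read 5.55, 5.50 and 5.47 with DSF and 4.28, 3.53 and 3.55 with 5-FU. MAPK14, which encodes p38 alpha, read 0.34, 0.32 and 0.28 with DSF, 0.13, -0.08 and -0.02 with 5-FU, and 0.46, 0.52 and 0.51 in the controls. It was 0.30 higher with DSF (adjusted p = 0.00189), a value that is -0.39 on the spike-ins and a call lost under median scaling, and it fell against the control with both drugs, by 0.18, a call lost without any 1 of the DSF or control arrays, and by 0.48. The upstream kinase genes MAP2K3 and MAP3K7 were 0.55 and 0.46 higher with DSF (adjusted p = 7.88e-05 and 6.85e-06), and MAP2K6 and MAP3K5 differed by -0.45 and -0.31 (adjusted p = 0.0352 and 0.0421). The call of MAP3K5 was lost without any 1 of the 6 arrays, and that of MAP2K6 without any 1 of the DSF arrays or without 5-FU replicate 1, where it read -0.17. On the spike-ins all 4 of these values are below 0, as are those of the other called genes, ATF2 (0.65 as scaled here), GADD45A (0.38), MAP3K6 (0.30) and MAPKAPK5 (-0.39). MAPK12, MAPK13, MAP2K4, TAB1, TAB2, MAPKAPK2 and MAPKAPK3 did not pass the test, with differences between -0.12 and 0.27. Array signal says nothing of phosphorylation.

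Interferon-stimulated genes were lower with DSF in 12 of 26 cases and higher in 7, beside 25.3% and 30.4% of all tested genes. Their median was -0.23, and of the 23 well above background on all 6 arrays 12 were lower and 4 higher. RIGI, the RNA sensor, read -1.24, -1.26 and -1.28 with DSF and 0.02, -0.13 and -0.09 with 5-FU, a difference of -1.20 ± 0.06 (adjusted p = 3.88e-09) with a rise of 1.03 with 5-FU. OASL differed by -1.57 and XAF1 by -1.90 (adjusted p = 2.14e-05 and 8.16e-05). BST2 (tetherin), by contrast, was well above background in all DSF arrays and in no 5-FU or control array of Huh1, and was at least 5.57-fold brighter than with 5-FU. Of 28 genes of the BCL2 family and the death receptors 12 were lower and 5 higher. The TRAIL gene TNFSF10 differed by -1.77 ± 0.20 (adjusted p = 7.51e-06) and HRK, a BH3-only inducer of apoptosis, by 2.49 ± 0.38 (adjusted p = 9.45e-05).

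The aldehyde dehydrogenase genes, whose products DSF inhibits, differed little. Of 16 measured 6 were lower with DSF and 1 higher, with a median of -0.088 that is 0.066 without 5-FU replicate 1, where 3 were lower, as without DSF replicate 2. ALDH1A1 read 6.73, 6.70 and 6.69 with DSF, 7.30, 7.01 and 7.07 with 5-FU, and 7.43, 7.61 and 7.53 in the controls, and differed by -0.42 (adjusted p = 0.00152). ALDH2 read 3.33, 3.30 and 3.34 with DSF and 3.27, 3.11 and 3.10 with 5-FU, with a difference of 0.16 that did not pass the test (adjusted p = 0.136) and is -0.53 on the spike-ins. ALDH6A1 had the largest called difference, -0.93 (adjusted p = 0.00409), a value of -0.57 without 5-FU replicate 1. ALDH7A1, ALDH5A1, ALDH1B1 and ALDH18A1 were lower as well, with differences between -0.50 and -0.24, and ALDH16A1 was 0.40 higher, a value below 0 on the spike-ins. Without 5-FU replicate 1 the calls of ALDH5A1 (-0.16), ALDH1B1 and ALDH18A1 were lost, ALDH7A1 read -0.29, and ALDH1L1 (1.02), ALDH3B1 (0.39) and ALDH9A1 (0.31) were called. The calls of ALDH5A1, ALDH1B1 and ALDH18A1 were also lost without DSF replicate 2, those of ALDH5A1 and ALDH18A1 without DSF replicate 3, that of ALDH5A1 without DSF replicate 1 and that of ALDH18A1 without 5-FU replicate 2 or 3. ALDH1L1, ALDH1L2, ALDH3A1, ALDH3A2, ALDH3B1, ALDH4A1, ALDH8A1 and ALDH9A1 did not pass the test, with differences between -0.52 and 0.64, and ALDH1A2, ALDH1A3 and ALDH3B2 were not measured. Against the control, 11 fell with DSF and 12 with 5-FU, and 0 rose with either, whereas on the spike-ins 8 fell with DSF and 7 rose and 0 fell with 5-FU. GAPDH, used as a reference gene in many assays, was 0.38 higher with DSF (adjusted p = 0.000552), a value that is 0.06 after quantile normalization and -0.31 on the spike-ins.

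Which drug moved a gene was read from the controls, which both comparisons share, so that a chance deviation of the control arrays enters both. Of the 1093 genes called and at least 2-fold higher with DSF, 855 were called higher than the control with DSF and 34 lower, and 374 were called lower than the control with 5-FU and 165 higher. The median was 1.57 with DSF and -0.33 with 5-FU. Of the 705 genes at least 2-fold lower with DSF, 405 were called lower than the control with DSF and 51 higher, and 440 were called higher than the control with 5-FU and 21 lower, with medians of -0.66 and 0.76. On the spike-ins, 500 of the 1093 were called higher than the control with 5-FU and 94 lower, and 655 of the 705 higher and 1 lower. Over all tested genes, 26.3% were called higher and 26.3% lower with DSF, and 25.9% higher and 29.0% lower with 5-FU. By list, the ribosomal protein median was -0.043 with DSF and -0.49 with 5-FU, the ER median 0.15 and -0.51, and the plasma protein median -0.70 and 0.18.

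**Figure D4:**
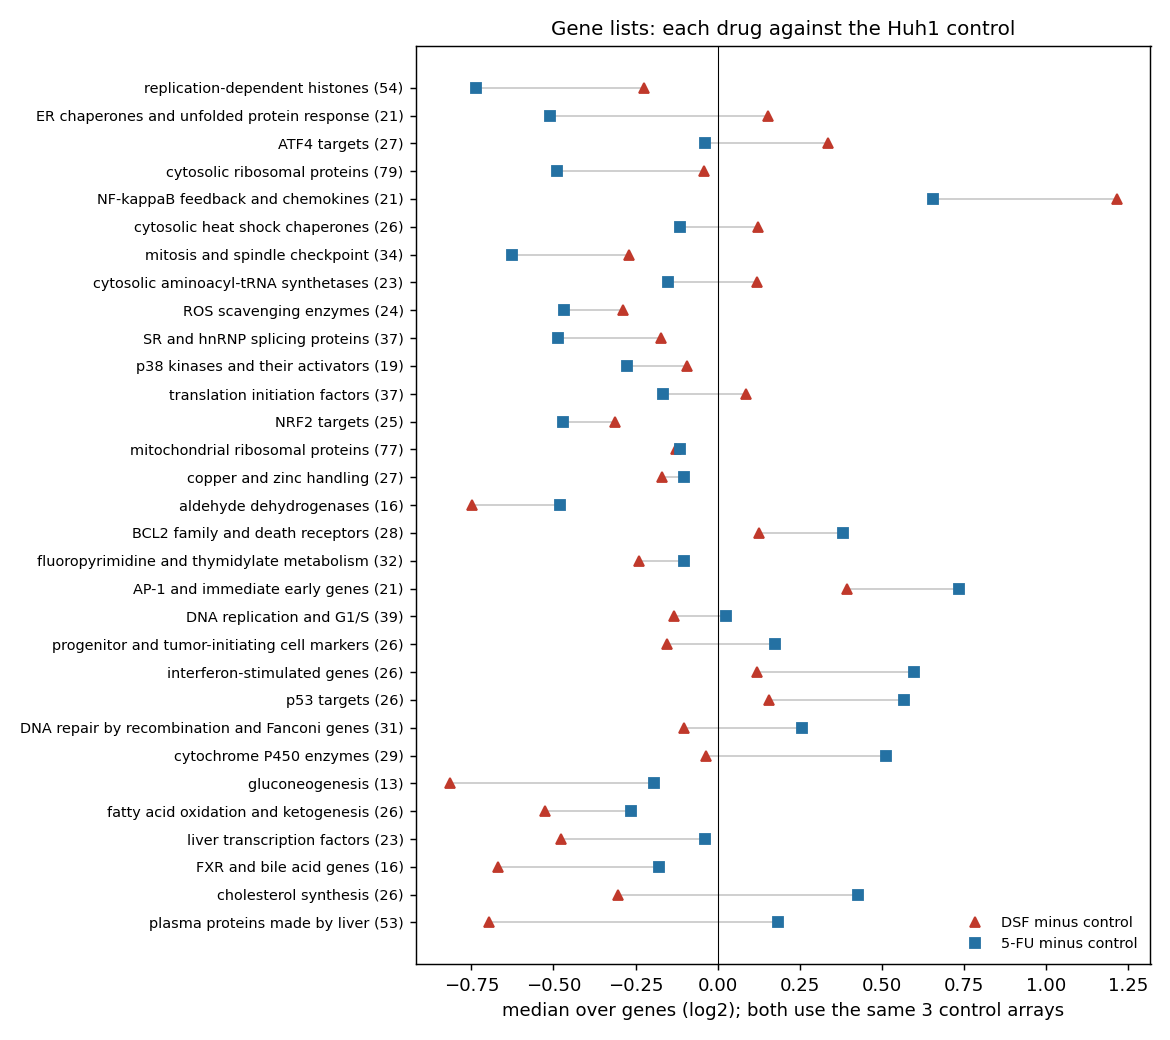
Median difference from the Huh1 control (log2) over the genes of 31 lists, in the order of the plot of list medians under both scalings, for DSF (triangles) and 5-FU (squares), which share the same 3 control arrays, on the scale of the array's 75th percentile. NF-kappaB genes lie at 1.22 and 0.65, both above the control, and plasma proteins at -0.70 and 0.18, on opposite sides.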

How the data were processed

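The authors deposited one-color Agilent scanner files, with the spot intensity already background-corrected by Feature Extraction 10.7.1.1 according to the submitters' processing notes, and a table of the same intensity values divided by the 75th percentile of each array, which matched the scanner values within 0.05 on the log2 scale for 100% of probes and gave 14683 calls in the same fit. After flagged spots were left out, log2 signals of the same probe were averaged and the 75th percentile of the array was subtracted. Probes well above background on every array of at least 1 group were tested (29894 of 42405). Groups came from the labels. The 6 groups of 3 arrays were fitted together with limma 3.58.1 (R 4.3.3), which left 12 residual degrees of freedom, and DSF was set against 5-FU in Huh1 with Benjamini-Hochberg adjustment. An exact permutation test of 3 against 3 arrays cannot go below p = 0.1 (two-sided). The number of arrays limits the precision. In simulated data with these probes the fit called 36% of 100 probes changed by 0.5 and 71% of 100 changed by 1 on the log2 scale, with 8 false calls. Only 100 probes of each size were changed there among 29894, whereas 49.2% of probes were called in the comparison itself. The shares recovered therefore do not carry over to it.

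Symbols were matched through RefSeq accessions for 25771 probes, and the brightest probe stood for a gene, so that 15852 genes were tested. The text names the 12 highest and 12 lowest genes measured on all 6 arrays with groups that did not overlap, the 6 in each direction by their bound, the genes the study followed, up to 3 called members of each list in each direction, and all metallothionein, CDK inhibitor, p38 and aldehyde dehydrogenase genes. Some genes that this rule takes are not reported here. The members, lists and tests were chosen with earlier results of these data known. Alternatives were quantile, median and spike-in scaling, normexp background correction on the median signal, stricter and no filters on dim probes, the mean over probes, the slide or the replicate number as a block, the 6 arrays alone, and each array left out. The values against the control on the spike-ins and without each control array were added after seeing the data.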

Additional observations from a re-analysis of the deposited data

Results flagged for a closer look

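The difference between DSF and 5-FU was also compared between Huh1 and Huh7, for 24 genes that had been chosen on their Huh1 values. Both lines measured 19 of them and the line difference passed the test for 16 (limma, adjusted p under 0.05), beside 11878 of all 29894 tested probes (39.7%). With the slide as a block it passed for 13, and was lost for KNG1 (1.28, adjusted p = 0.132), MEP1A (-1.13, adjusted p = 0.127) and APOA1 (-1.06, adjusted p = 0.077). Of the 3 Huh7 DSF arrays 2 lay on a slide that holds no other group.

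CDKN1C had the widest gap. The Huh1 difference exceeded the Huh7 difference by 9.99 on the log2 scale, and the value within Huh7 was -0.415. The gap was 4.93 for NRARP, which differed by 1.43 in Huh7, and 2.49 for RRAD, which differed by 4.44 there. The mean of NRARP with 5-FU was -0.49 in Huh7 and -4.44 in Huh1, and with DSF 0.94 and 1.92. For RRAD the means were -5.14 in Huh7 and -5.24 in Huh1 with 5-FU, and -0.71 and 1.69 with DSF. HSPA6 differed more in Huh7, by 9.04, a gap of -2.20 (Huh1 minus Huh7). Its mean with 5-FU was -5.82 in Huh7 and -3.30 in Huh1, and with DSF 3.23 and 3.55.

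Metallothionein genes differed more in Huh7 as well, with gaps of -1.39 for MT1E, -1.79 for MT1L, -0.999 for MT1X, -0.44 for MT1H, -0.89 for MT1B and -1.44 for MT2A. With 5-FU each of these genes had a lower mean in Huh7 than in Huh1, such as -3.41 against -1.44 for MT1E. With DSF the mean of MT2A was higher in Huh7, 8.54 against 8.06. The others were lower there, such as MT1E with 7.34 against 7.92. Among the genes lower with DSF, the gaps were -2.33 for ISM1, which differed by -0.705 in Huh7, -1.68 for FAM20A, -1.07 for MEP1A, -0.95 for APOA1, -0.46 for WIF1 and 1.38 for KNG1.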

How the results depend on the processing

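The scaling decides the split between higher and lower. Probes called higher with DSF numbered 5507 under median scaling, 1375 on the spike-ins and 13396 after normexp, those lower 18758 on the spike-ins, and those at least 2-fold apart 7400 on the spike-ins, 1593 after normexp and 1973 with probes well above background on all 6 arrays. Of the calls, 58.1% were higher as reported, 48.3% after quantile normalization, 40.6% under median scaling, 6.83% on the spike-ins and 70.7% after normexp. The median over all tested probes, 0.082 as reported, was -0.020 after quantile normalization, -0.067 under median scaling, -0.61 on the spike-ins, 0.20 after normexp, 0.20 with no filter and 0.058 with the strict filter.

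On the spike-ins these medians turned: heat shock -0.30, NRF2 -0.44, ROS -0.37, ATF4 -0.23, ER -0.064, CDK inhibitors -0.62, mitosis -0.34, cytosolic ribosomal proteins -0.24, initiation factors -0.43, splicing proteins -0.37, synthetases -0.37, p38 -0.42, NF-kappaB -0.26 and markers of other cell types -0.58. So did the genes ALDH2 (-0.53), ALDH16A1 (-0.29), ALDH1L1 (-0.053), ALDH1L2 (-0.51), ALDH3A1 (-0.28), ALDH3B1 (-0.54), ALDH9A1 (-0.56), CDKN1B (-0.66), CDKN2A (-0.59), CDKN2C (-0.31), MAP2K3 (-0.14), MAP3K6 (-0.39), MAP3K7 (-0.24), MAPK12 (-0.42), MAP2K4 (-0.64), MAPKAPK2 (-0.63), ATF2 (-0.044), GADD45A (-0.32), GSS (-0.23), MAPK14 (-0.39) and GAPDH (-0.31). Calls lost on the spike-ins, with the direction kept, were those of SLC30A1, SLC30A2, COMMD1, SLC7A11, GPX1, SAA1, CCNB2, BUB1, CDA, RPL10A, HNRNPA1, VCP and CXCL1. Other reversals were NRF2 after quantile normalization (-0.069), CDK inhibitors (-0.080) and other cell markers (-0.039) under median scaling, and copper and zinc genes (0.13) and PROM1 (0.016) after normexp. Of the genes that had not passed the test, ALDH1L2 turned after quantile normalization (-0.13), ALDH9A1 (-0.019), CDKN1B (-0.11), CDKN2A (-0.046), MAP2K4 (-0.096) and MAPKAPK2 (-0.085) under median scaling, and CDKN1B (-0.0049) and TAB2 (0.13) with the mean over their probes. The cause was not tested.

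With each array left out in turn, 12939 to 13872 probes were called, 7479 to 7919 higher and 5444 to 5953 lower. The medians ran from -0.046 to 0.0072 for copper and zinc genes, from -0.041 to 0.0012 for mitochondrial ribosomal proteins, from -0.31 to 0.071 for AP-1 genes and from -0.16 to 0.066 for aldehyde dehydrogenases, and the values from -0.079 to 0.033 for ALDH3A2, from -0.26 to 0.099 for ALDH4A1 and from -0.076 to 0.00029 for MAPKAPK3. The turns came without 5-FU replicate 1, except those of mitochondrial ribosomal proteins without DSF replicate 2 and of MAPKAPK3 without 5-FU replicate 3. The replicate numbers did not pair the samples (correlations of -0.04, 0.02 and -0.05), and with the replicate number as a block 13826 probes were called, 8012 higher and 5814 lower, and the calls of ALDH5A1 and MAP3K5 were lost. With the slide as a block, CDH1 and MAP2K6 were lost beside these, and with the 6 arrays alone CDH1, MAP2K6, ALDH5A1, ALDH6A1 and ALDH7A1. Averaging the closest arrays, an alternative chosen after seeing the data, gave 11487 calls. Dim signals limit genes near background, whose differences shrank after normexp.

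Under median scaling the count of genes higher with DSF became 11 for ATF4 targets, 1 for replication, 3 for recombination repair, 5 for mitochondrial ribosomal proteins, 15 for splicing proteins, 7 for synthetases, 0 for fatty acid synthesis, and 1 each for fatty acid oxidation, plasma proteins and liver transcription factors. On the spike-ins heat shock genes were 4 higher and 13 lower, ATF4 targets 6 and 9, ER genes 5 and 5, ribosomal proteins 1 and 23, mitosis genes 1 and 17, and NF-kappaB genes 2 and 8.

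Values against the control turned as follows. On the spike-ins with 5-FU, the medians became 0.045 for metallothioneins, 0.36 for NRF2, 0.32 for ER, 0.20 for mitosis, 0.092 for histones and 0.34 for ribosomal proteins, and the genes MT1F 0.056, CTH 0.37, DDIT4 0.42, HERPUD1 0.75, NRARP 0.29, DHRS2 0.066, PCK1 0.82, ARG1 0.65, GPC3 0.51, CDA 0.44 and MAPK14 0.34, and with DSF, replication 0.00073, ribosomal proteins 0.092 and PCK2 0.038. With DSF under median scaling, ER became -0.020, p53 -0.015, SKAP1 -0.16 and CDC6 -0.15, after quantile normalization SKAP1 -0.29 and CDC6 -0.083, and with the closest arrays averaged CDC6 -0.028. With 5-FU, HSPA6 became -0.029 and OLFML2A -0.16 after normexp, and PCK1 0.15 and ARG1 0.13 with the closest arrays averaged. With each array left out, values with 5-FU ran from -0.027 to 0.071 for the replication median, -0.15 to 0.045 for HERPUD1, -0.17 to 0.13 for OLFML2A, -0.43 to 0.21 for PCK1, -0.18 to 0.45 for OTC, -0.64 to 0.065 for ARG1, -0.11 to 0.65 for KNG1 and -0.24 to 0.43 for SULT2A1, and with DSF from -0.26 to 0.0033 for PCK2, -0.16 to 0.16 for SKAP1 and -0.026 to 0.11 for CDC6. The cause was not tested.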
